A study of Homo sapiens with 5 samples.

Results

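The genes described here encode the machinery that copies DNA and the regulators that take a cell from G1 into S phase. They are 59 listed genes, from the helicase subunits MCM2 to MCM7 to the regulators CCNE1 and CDC25A, and each was taken where the array had a probe set named for that gene alone. All 59 had one, of 12893 genes in all. They were measured in HepG2, a human liver cancer line that still makes plasma proteins as hepatocytes do. The cells were depleted of LSD2, a histone H3 lysine 4 demethylase encoded by KDM1B, with 3 different small interfering RNAs (siRNAs). Each LSD2 siRNA was measured on 1 array. The control siRNA targets GL3, a luciferase absent from human cells, and was measured on 2 arrays. The labels name the second of these a technical repeat, so both were averaged to 1 control sample. Per the labels' protocols, every culture had 25 mM glucose and 10% serum, was transfected with its siRNA near 50% confluence, and was harvested 3 to 4 days on. The values were taken as log2, though the base is not stated, and the level of each gene had been removed from them, so they give differences between arrays and not abundance, and the hepatocyte identity of the line could not be checked by level. The labels do not state whether the knockdown cultures were independent. A p-value here rests on the spread between these 3 arrays, combined with a spread over all genes, and part of that spread may be technical.

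In G1, origins of replication are licensed when the origin recognition complex, CDC6 and CDT1 load the MCM helicase onto DNA. Cyclin-dependent kinases then release E2F transcription factors from the retinoblastoma protein, and E2F drives transcription of most genes of this list, which is why their transcripts are commonly read as a measure of proliferation. In the adult liver hepatocytes are mostly quiescent and express these genes at low levels, while a carcinoma line in culture keeps cycling.

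KDM1B, the targeted gene, was lower on all 3 knockdown arrays. Its control arrays stood at 0.39 and -0.39 around their mean, and the arrays of siRNAs 1, 2 and 3 at -2.60, -1.73 and -1.38, all below both. Bacterial poly-A transcripts, added to the RNA before labelling, put control array 1, siRNA 1 and siRNA 2 in one set of arrays and control array 2 and siRNA 3 in another, with medians over 24 probe sets between 0.00 and 0.07 in the first and of -1.45 and -1.39 in the second, relative to control array 1. The labels do not say what these sets stand for. Ratios of 3′ to 5′ probe sets for ACTB and GAPDH, a measure of RNA integrity, lay between -0.20 and 0.07 of control array 1 on every other array. The number of arrays limits the precision of each value, and with bulk RNA fewer cells in S phase and less of a transcript per cell cannot be told apart.

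Replication and G1/S transcripts read lower under siRNA 2 than on the control arrays, and their medians under the other siRNAs were closer to the control. The median over the 59 genes was -0.85 under siRNA 2, against -0.16 under siRNA 1 and -0.06 under siRNA 3, where the medians of all genes were 0.03, -0.04 and 0.01. The mean over the 3 siRNAs had a median of -0.35 over the list, and of -0.15 without siRNA 2. Under siRNA 2, 53 of the 59 (89.8%) read below both control arrays, while 37.1% of all genes did. Above both stood 1 gene, E2F3 (38.1% of all genes). The exceptions were ORC3, POLD3, RPA1, E2F2, E2F3 and CCND1, named after their values were seen. Under siRNA 1, 30 of 59 (50.8%) read below both control arrays and 14 above both, where all genes gave 40% and 32.2%. Under siRNA 3, 28 (47.5%) read below and 17 above, where all genes gave 33.9% and 35.2%. A reading at least 2-fold below the control mean, a log2 difference of -1 or lower, was found for 22 of 59 under siRNA 2 (7.44% of all genes), for 2 under siRNA 1 (6.18%) and for 1 under siRNA 3 (5.57%).

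Over the whole list the control arrays showed no common shift, though single roles did differ between them. The median of control array 2 minus control array 1 was 0.00 over the 59 genes. By role this median ran from -0.21 for the helicase to 0.20 for the clamp and its loader. The size of the difference, sign set aside, had a median of 0.22 over the 59 genes, where over all genes it was 0.31. That size was under 0.5 in 51 of the 59 and reached 2.07 in E2F2. In 50 of the 59 genes siRNA 2 gave the lowest of the 5 arrays, as it did in 24% of all genes. This order holds without reference to the control mean. The median of siRNA 2 minus the mean of siRNAs 1 and 3, a difference that involves no control array, was -0.68 over the 59 genes and 0.05 over all genes. Against the control array of its own spike-in set, the 59 genes had medians of -0.24 under siRNA 1, -0.91 under siRNA 2 and -0.04 under siRNA 3. SiRNA 2 shared its set with control array 1 and siRNA 1, and 52 of the 59 read lower under siRNA 2 than on both of those arrays, as did 35.6% of all genes.

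**Figure D1:**
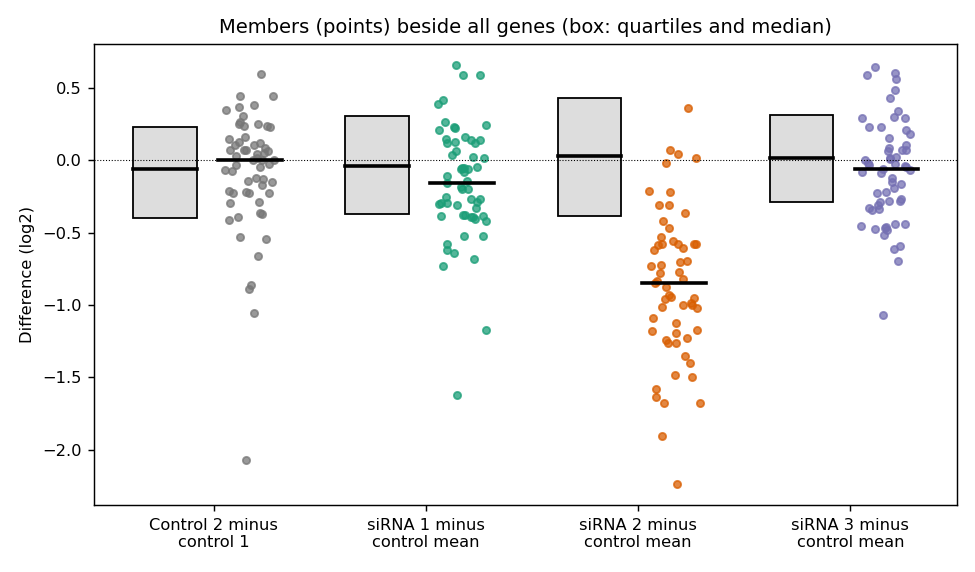
Differences on the log2 scale for each of the 59 genes (points, with a bar at their median) beside all 12893 genes (box from the lower to the upper quartile, with a bar at the median). The points of siRNA 2 centre on -0.85, while those of siRNAs 1 and 3 and of the control pair lie around 0.

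No gene passed the test over the 3 siRNAs. In limma, fitted to all 12893 genes with the averaged control as 1 sample, 0 genes reached an adjusted p under 0.05 (0% of all genes), and every one of the 59 had an adjusted p = 0.9999. At an unadjusted p under 0.05 the fit gave 46 lower genes (0.357% of all genes) and 172 higher genes (1.33%), with 0 of the 59 among either, and the lowest unadjusted p of the 59 was 0.109 for GINS2. The test combines each gene's spread between siRNAs with a spread estimated over all genes. The gene's own spread had a median SD of 0.48 over the 59 genes, against 0.39 over all genes. The values below are therefore measurements on single arrays, and none is a called change.

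In 15 of the 59 genes (25.4%) all 3 siRNA arrays read below both control arrays, where 10.1% of all genes did. They were MCM2, MCM3, MCM4, MCM7, MCM10, GINS2, POLA1, PRIM1, PCNA, RFC4, DUT, E2F1, MYBL2, CDK2 and DTL. Where a gene had several probe sets this holds for their mean, and single probe sets could differ. Under siRNA 3 a probe set of MCM4 read 0.25, of GINS2 0.10, of DUT 0.0016, of MCM10 -0.03 and of CDK2 -0.06. Under siRNA 1 probe sets of MCM10 read 0.007 and -0.22. None of these lay below both of its own control arrays, while every probe set of MCM7 and DTL did under all 3 siRNAs. In 0 of the 59 did all 3 siRNA arrays read above both control arrays (8.63% of all genes). Since siRNA 2 was low in most of the list, the count rested on the other siRNAs: siRNAs 1 and 3 both read below both control arrays in the same 15 genes (16.2% of all genes), and both read above in 8 (13.7% of all genes, and 13.6% of the list). The gap between the highest siRNA array and the lowest control array ran from 0.014 for PCNA to 0.47 for MYBL2, and in 6 of the 15 it was under 0.1. With an array left out fewer have to lie apart, and the share of all genes rises too. The count was 25 without siRNA 1 (17.3% of all genes) and 28 without siRNA 3 (20.2%). It was 22 without control array 1 (20.2% of all genes) and 29 without control array 2 (24.5%). With each siRNA set against the control array of its own spike-in set, 23 of the 59 were lower under all 3 (18.4% of all genes) and 0 were higher (15.4%).

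**Figure D2:**
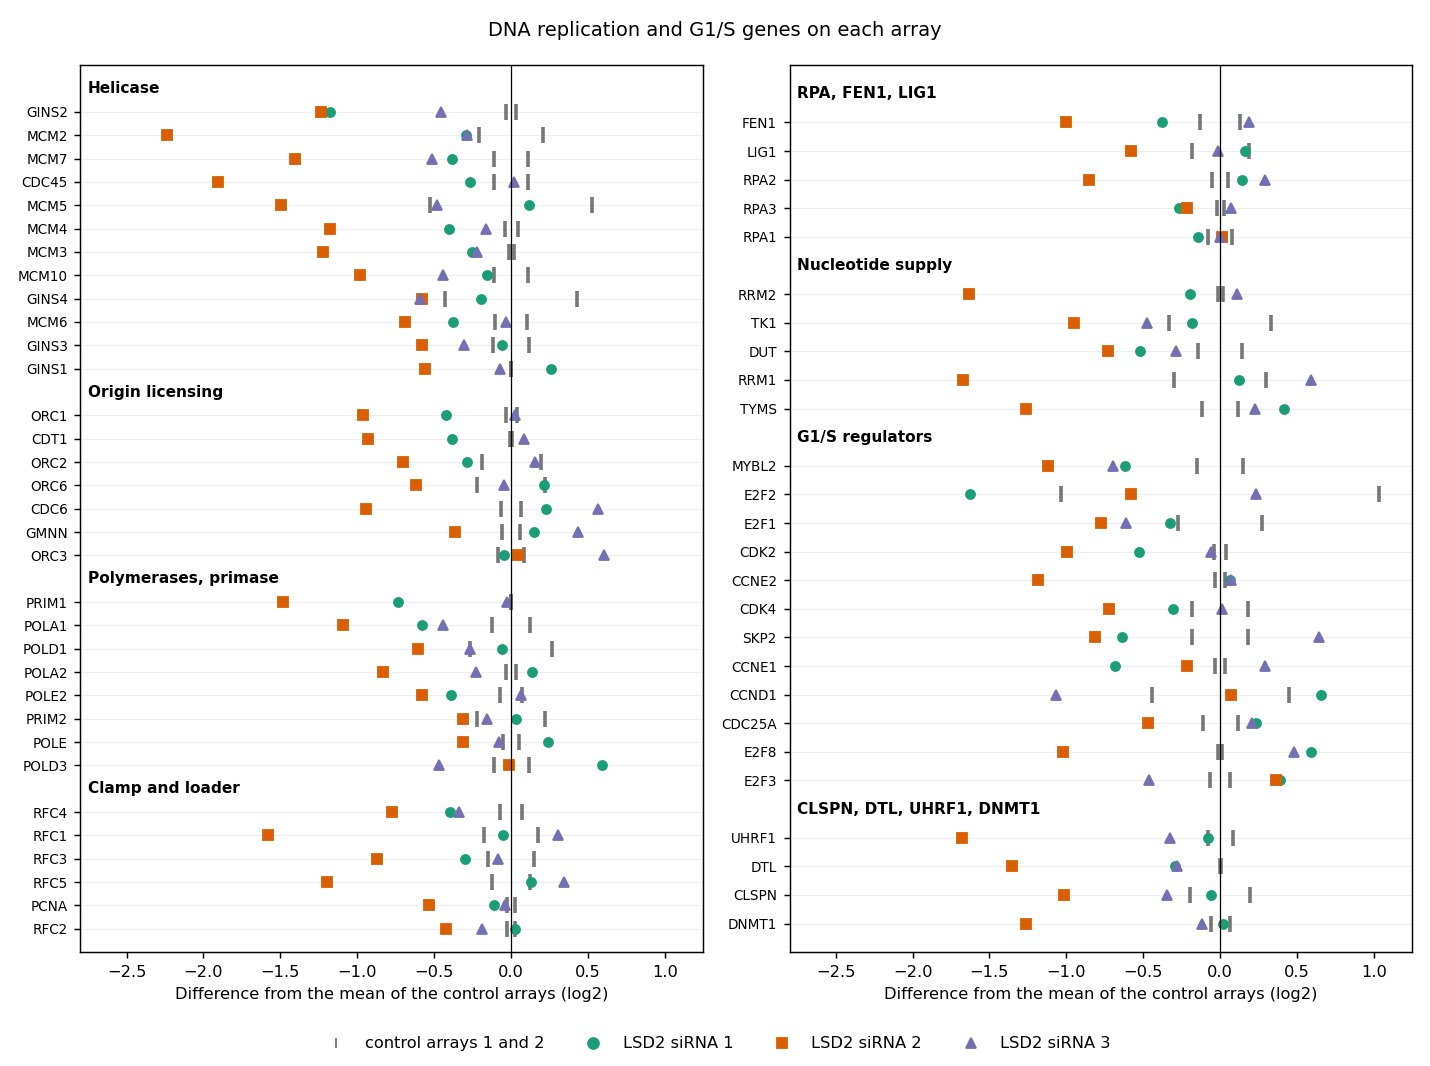
Each of the 59 genes on each array, as the log2 difference from the mean of the control arrays, grouped by role and ordered by the mean of the 3 siRNAs. Vertical ticks mark the control arrays, and the squares of siRNA 2 stand left of every other mark in 50 genes, from MCM2 at -2.24 to POLE and PRIM2 at -0.31.

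The promoters of these genes are shown because the 59 are commonly described as E2F targets, so that shared promoter letters are what the list itself would lead one to look for. RefSeq promoters of GRCh38.p14, from 250 bases before to 50 after a transcript start, were found for 49 of the 59 genes, 65 promoters in all. The E2F letters searched were TTTCCCGC, TTTCGCGC, TTTGCCGC and TTTGGCGC on both strands. They were in 29 of the 65 promoters (44.6%), in 3.31% of all 35116 promoters of the table and in 4.67% of those of genes on the array. The 4 promoters below belong to the genes with the lowest mean differences, GINS2 and MCM2, and the highest, E2F3 and ORC3, among those that hold an E2F match. Each runs 5′ to 3′ on the gene's strand from 120 bases before the start through the first 20 transcribed bases, with the matched letters in capitals.
GINS2: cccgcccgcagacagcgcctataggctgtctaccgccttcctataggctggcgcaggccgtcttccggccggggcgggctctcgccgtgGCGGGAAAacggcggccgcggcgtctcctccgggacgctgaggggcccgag
MCM2: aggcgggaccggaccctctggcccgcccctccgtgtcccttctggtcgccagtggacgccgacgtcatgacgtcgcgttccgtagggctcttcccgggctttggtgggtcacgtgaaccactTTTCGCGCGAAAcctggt
E2F3: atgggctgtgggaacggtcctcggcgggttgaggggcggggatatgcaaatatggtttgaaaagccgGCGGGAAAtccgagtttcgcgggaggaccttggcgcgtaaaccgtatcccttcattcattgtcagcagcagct
ORC3: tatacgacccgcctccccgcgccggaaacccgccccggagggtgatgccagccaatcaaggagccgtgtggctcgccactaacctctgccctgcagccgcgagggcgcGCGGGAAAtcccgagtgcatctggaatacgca

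The GINS2 window is chr16:85688935-85689074 on the minus strand and the MCM2 window chr3:127598291-127598430 on the plus strand. The E2F3 window, from 1 of the 2 promoters listed for that gene, is chr6:20401759-20401898 and the ORC3 window chr6:87590015-87590154, both on the plus strand. GINS2, E2F3 and ORC3 each held GCGGGAAA, the reverse complement of TTTCCCGC, which began 31, 53 and 12 bases before the start. In MCM2 the letters TTTCGCGC on both strands overlapped to form TTTCGCGCGAAA from the third transcribed base. The same letters thus stood in promoters of genes at both ends of the list. The median difference under siRNA 2 was -0.80 over the 28 genes with an E2F match and -0.95 over the 21 genes with promoters that held none. CCAAT, the letters of the NF-Y box, were in 53.8% of the 65 promoters and 34.9% of those of genes on the array. TTTGAA, the cell cycle homology region (CHR) through which the DREAM complex acts on mitotic genes, was in 4.62% of them and 11.4% of those of genes on the array. Over the 51 promoters of a list of mitosis genes the shares were 7.84% for E2F, 68.6% for CCAAT and 62.7% for TTTGAA. A match describes letters and is not evidence of binding.

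**Figure D3:**
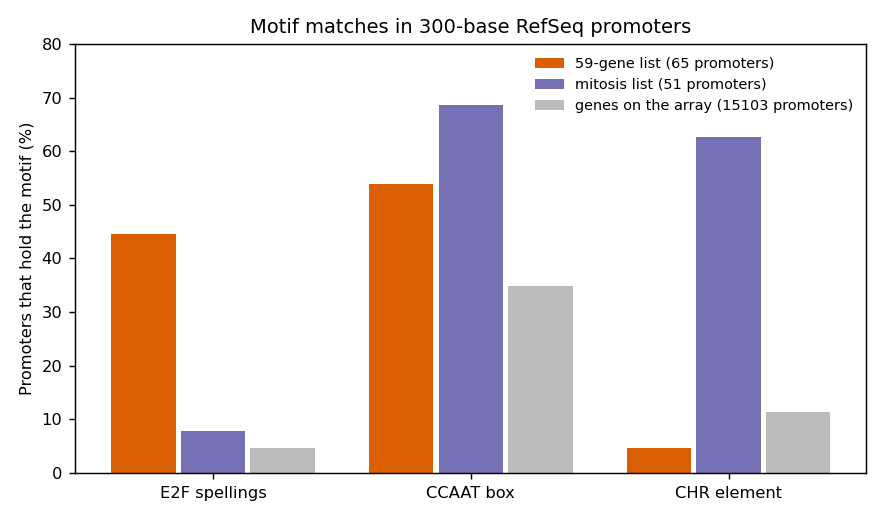
Share of 300-base RefSeq promoters that hold each motif on either strand, in percent, for the 59-gene list, a mitosis list and all genes on the array. E2F matches stand at 44.6% in the replication list, and the CHR element stands at 62.7% in the mitosis list.

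The replicative helicase held the deepest single reading of the list. Its 12 genes had medians of -0.26, -1.20 and -0.30 under siRNAs 1, 2 and 3. Against the control array of each siRNA's own spike-in set these were -0.39, -1.17 and -0.18. In all 12 siRNA 2 read below both control arrays (37.1% of all genes), and 6 had all 3 siRNA arrays below both (10.1% of all genes). MCM2, a subunit of the ring that unwinds DNA, stood at -0.29, -2.24 and -0.28 under siRNAs 1, 2 and 3, with the control arrays at 0.21 and -0.21. Under siRNA 2 it was at 21.2% of the control, the lowest reading among the 59 genes, while the higher of its other siRNA arrays lay 0.078 below the lower control array. Its mean was -0.94 ± 1.13 (SD, n = 3 siRNAs).

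In MCM3, MCM4 and MCM7 too the siRNA 2 array was the lowest. MCM3 stood at -0.25, -1.23 and -0.22 with its control arrays at -0.02 and 0.02. MCM4 stood at -0.41, -1.17 and -0.16 with its control arrays at -0.04 and 0.04. MCM7 stood at -0.38, -1.40 and -0.52 with its control arrays at 0.11 and -0.11, and its mean was -0.77 ± 0.55 (SD, n = 3 siRNAs). In each of these the siRNA and control arrays did not overlap. For MCM4 this holds for the mean of its 4 probe sets, which ran from -0.33 to 0.25 under siRNA 3. MCM5 stood at 0.12, -1.50 and -0.48, but its control arrays were 1.06 apart and enclosed the readings under siRNAs 1 and 3. MCM6 was the MCM ring gene nearest to the control under siRNA 2, at -0.69.

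GINS2 was the gene with the lowest mean of the list. It encodes a subunit of the GINS complex, which joins CDC45 and the MCM ring in the active helicase. It stood at -1.18 under siRNA 1, -1.24 under siRNA 2 and -0.45 under siRNA 3, with the control arrays at -0.03 and 0.03, and its mean was -0.96 ± 0.44 (SD, n = 3 siRNAs). Unlike the rest of the helicase, it was as low under siRNA 1 as under siRNA 2. In the limma fit its standard error was 0.49. Under siRNA 3 its 2 probe sets disagreed, at 0.10 and -1.01. Its partners GINS1, GINS3 and GINS4 read -0.56, -0.58 and -0.58 under siRNA 2, and GINS1, the highest gene of the helicase group, stood at 0.26 and -0.07 under siRNAs 1 and 3. The 3 probe sets of GINS4 ran from -1.56 to 0.58 under siRNA 2. CDC45, which holds the helicase together, stood at -0.26, -1.90 and 0.02 with control arrays at 0.11 and -0.11. MCM10, which helps to activate the helicase, stood at -0.16, -0.99 and -0.44 with the same spread of its control arrays.

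Origin licensing genes read below both control arrays under siRNA 2 in 6 of 7 cases (37.1% of all genes). The group had medians of -0.05, -0.70 and 0.15 under siRNAs 1, 2 and 3. In 0 of these genes did all 3 siRNA arrays lie below both control arrays (10.1% of all genes). ORC1, the origin recognition subunit whose level varies with the cell cycle, stood at -0.42, -0.96 and 0.02, with control arrays at -0.04 and 0.04. CDT1, which brings the MCM ring to origins, stood at -0.38, -0.93 and 0.08, with control arrays 0.02 apart. In both genes siRNAs 1 and 2 were below the control arrays and siRNA 3 was among or above them. CDC6, the ATPase that works with CDT1, read -0.94 under siRNA 2 but 0.22 and 0.56 under siRNAs 1 and 3. GMNN, the inhibitor of CDT1, read -0.37 under siRNA 2 and 0.15 and 0.43 under the others. ORC3, a subunit present throughout the cycle, was the highest gene of the whole list at a mean of 0.20 ± 0.35 (SD, n = 3 siRNAs), with -0.05, 0.04 and 0.60 under siRNAs 1, 2 and 3 and control arrays at 0.09 and -0.09.

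Among the polymerases and primase, PRIM1 and POLA1 had the lowest means. The 8 genes had medians of -0.01, -0.59 and -0.19 under siRNAs 1, 2 and 3. PRIM1, the catalytic primase subunit, stood at -0.73, -1.48 and -0.02, with control arrays less than 0.01 apart. Its siRNA 3 array was only 0.023 below them. PRIM2, the regulatory primase subunit, stood at 0.04, -0.31 and -0.15, with control arrays at -0.22 and 0.22, a mean of -0.14. POLA1, the catalytic subunit of polymerase alpha, stood at -0.58, -1.09 and -0.44 with control arrays at -0.12 and 0.12, and its mean was -0.70 ± 0.34 (SD, n = 3 siRNAs). All 3 of its siRNA arrays stood below both control arrays by 0.32 or more. The leading strand polymerase genes POLE and POLE2 read -0.31 and -0.58 under siRNA 2, and the lagging strand polymerase gene POLD1 read -0.61. POLD3, an accessory subunit of polymerase delta, stood at 0.59, -0.02 and -0.47, with control arrays at -0.11 and 0.11, so its readings lay on both sides of the control. Its 2 probe sets read -0.82 and 0.79 under siRNA 2.

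The sliding clamp and its 5 loader genes all read below both control arrays under siRNA 2, as did 37.1% of all genes. Their median was -0.82 under siRNA 2, against -0.08 and -0.06 under siRNAs 1 and 3. PCNA, the clamp that holds polymerases on DNA, stood at -0.11, -0.53 and -0.04, with control arrays at -0.02 and 0.02. The groups did not overlap, but the margin was 0.014. RFC4, a loader subunit, stood at -0.39, -0.78 and -0.34, with control arrays at -0.07 and 0.07. RFC1, the large loader subunit, was nearly flat under siRNA 1 at -0.05 and above both control arrays under siRNA 3 at 0.30, and it read -1.58 under siRNA 2, with control arrays at -0.17 and 0.17. RFC5 read 0.13, -1.20 and 0.34, but its 3 probe sets ran from -2.44 to 1.19 under siRNA 2. RFC2 was the highest of the group, with -0.42 under siRNA 2.

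Genes of single-strand binding and Okazaki fragment joining did not read alike. RPA1, the large subunit of the single-strand binding protein, stood at -0.14, 0.01 and 0.00 with control arrays at 0.08 and -0.08, and its SD over siRNAs was 0.09. These means hide probe sets that disagree, since its 3 probe sets ran from -1.06 to 0.33 under siRNA 1 and from -0.17 to 0.38 under siRNA 2. Its partner RPA2 stood at 0.14, -0.85 and 0.29 and RPA3 at -0.26, -0.22 and 0.07. Of these subunits of one complex, RPA2 was low on the siRNA 2 array and the mean of RPA1 was not. FEN1, the flap endonuclease that trims Okazaki fragments, read -0.38 and 0.18 under siRNAs 1 and 3, its control arrays stood at -0.13 and 0.13, and under siRNA 2 it was at 49.9% of the control. LIG1, the ligase that seals them, stood at 0.16, -0.58 and -0.02, with control arrays at 0.19 and -0.19. In both the siRNA 2 array was the lowest of all.

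Nucleotide supply genes had the widest median gap of any role between siRNA 2 and the mean of siRNAs 1 and 3, at -1.58. The 5 genes had medians of -0.18, -1.26 and 0.11 under siRNAs 1, 2 and 3, and siRNA 2 was the lowest array in all 5 (24% of all genes). RRM1 and RRM2, the subunits of ribonucleotide reductase, which makes deoxyribonucleotides, read -1.67 and -1.64 under siRNA 2, which is 31.4% and 32.2% of control. Under siRNAs 1 and 3 RRM1 read 0.12 and 0.59, with control arrays at -0.30 and 0.30, and RRM2 read -0.20 and 0.11, with control arrays at 0.02 and -0.02. TYMS, the thymidylate synthase gene, read -1.26 under siRNA 2 but 0.42 and 0.23 under siRNAs 1 and 3, both above its control arrays at -0.12 and 0.12. TK1, the thymidine kinase gene, stood at -0.18, -0.95 and -0.47, with control arrays at 0.33 and -0.33. DUT, which removes dUTP from the pool, was the one gene of the group with all 3 siRNA arrays below both control arrays, at -0.52, -0.73 and -0.29 with control arrays at 0.14 and -0.14. One of its 3 probe sets carries the suffix of probes that can match other transcripts.

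The regulators of the G1/S transition included genes on both sides of the control. The 12 genes had medians of -0.32, -0.75 and 0.04 under siRNAs 1, 2 and 3. MYBL2, an E2F-induced transcription factor of cycling cells, had the widest gap between the siRNA arrays and the control arrays. It stood at -0.62, -1.12 and -0.70, with control arrays at 0.15 and -0.15, a mean of -0.81 ± 0.27 (SD, n = 3 siRNAs). E2F1, the activator of S phase genes, stood at -0.33, -0.77 and -0.61 with control arrays at 0.27 and -0.27, and siRNA 1 lay 0.055 below the lower of them. CDK2, the kinase partner of cyclin E, read -0.53 and -0.06 under siRNAs 1 and 3, its control arrays stood at 0.04 and -0.04, and it was at 50.1% of the control under siRNA 2, so its siRNA 3 array was near the control. E2F2 had the widest control pair of the list, at 1.03 and -1.03, which enclosed siRNAs 2 and 3 at -0.58 and 0.23, while siRNA 1 stood at -1.62. Its 2 probe sets disagreed, with control array 2 minus control array 1 at -3.62 in one and -0.52 in the other. Under siRNA 2 the first read 0.11 and the second -1.28.

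Cyclins and other E2F members had arrays in other orders. CCND1, the D-type cyclin induced by growth signals, read 0.66, 0.07 and -1.07, and its control arrays stood at 0.44 and -0.44. CCNE1, a cyclin that starts S phase, was lowest under siRNA 1 at -0.69, while CCNE2 was lowest under siRNA 2 at -1.18 and read 0.07 under the others. The 2 probe sets of CCNE2 disagreed, with -0.68 and 0.81 under siRNA 1 and -0.14 and 0.29 under siRNA 3. E2F3, an activator like E2F1, read 0.39, 0.36 and -0.46, with control arrays at 0.07 and -0.07, and was the highest regulator by its mean. E2F8, a repressor of the same family that E2F1 itself induces, read 0.59, -1.02 and 0.48, with control arrays at 0.01 and -0.01. Its readings under siRNAs 1 and 3 were thus on the other side of the control from that under siRNA 2.

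The remaining genes guard the fork and carry methylation through replication. UHRF1 recruits the maintenance methyltransferase DNMT1 to newly copied DNA. UHRF1 stood at -0.08, -1.68 and -0.33 with control arrays at -0.08 and 0.08. DNMT1 stood at 0.02, -1.26 and -0.12 with control arrays at 0.06 and -0.06. Both were at their lowest under siRNA 2, at 31.3% and 41.6% of the control, and siRNA 1 lay close to the control arrays. DTL, the adaptor that sends CDT1 to degradation, stood at -0.29, -1.35 and -0.28 with control arrays less than 0.01 apart. CLSPN, a checkpoint mediator at the fork, read -0.06, -1.01 and -0.35.

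The gap between siRNA 2 and the nearer of the other siRNAs was widest in MCM2, at 1.95. RRM1 followed at 1.80, then CDC45 at 1.64, RFC1 at 1.53, with E2F8 next. In 16 of the 59 genes siRNA 2 read at least 2-fold below the mean of siRNAs 1 and 3, as it did in 7.08% of all genes. Against the control array of its own spike-in set, MCM2 stood at -0.50, -2.45 and -0.08 and RRM1 at 0.42, -1.37 and 0.29 under siRNAs 1, 2 and 3. In both genes siRNA 2 was the lowest array within its spike-in set too.

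Replication genes outside the list read lower under siRNA 2 as well. Of 42 such genes, among them origin kinases, fork factors and histone chaperones, 37 were measured, with medians of -0.05, -0.70 and -0.11 under siRNAs 1, 2 and 3. Under siRNA 2, 29 of the 37 read below both control arrays (37.1% of all genes), and 0 of the 37 passed limma's test in either direction. CHAF1B, a subunit of the chaperone that places histones on new DNA, stood at -0.70, -1.19 and -0.59, with control arrays at 0.03 and -0.03. RNASEH2A, which removes RNA from DNA, was lowest under siRNA 1, at -1.51, -0.70 and -0.15. POLD4, a small subunit of polymerase delta, was the highest at 0.70, 1.28 and 0.28, with control arrays at 0.46 and -0.46.

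Brakes of the G1/S transition and partners of its regulators had a median under siRNA 2 nearer to the control than that of the 59 genes, and a median above the control under siRNA 1. Of 28 genes 25 were measured, with medians of 0.18, -0.34 and -0.01 under siRNAs 1, 2 and 3, and 0 passed limma's test in either direction. CDKN2B and CDKN2A, neighbouring genes that encode inhibitors of CDK4 and CDK6, were the lowest by their mean, and siRNA 3 set that order. CDKN2B stood at -1.11, -0.06 and -2.82, with control arrays at 0.03 and -0.03. CDKN2A stood at 0.43, -0.43 and -2.30, with control arrays at 0.40 and -0.40. CCND2, a D-type cyclin, was the highest at 2.23, 0.98 and -0.81.

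Genes of mitosis had a median under siRNA 2 below that of the replication genes. Over 45 measured genes the medians were 0.16, -1.38 and -0.13 under siRNAs 1, 2 and 3. Under siRNA 2, 44 of the 45 read below both control arrays, as did 37.1% of all genes. CDC25C, the phosphatase that opens mitosis, stood at -0.48, -2.39 and 0.16, with control arrays at -0.16 and 0.16, and AURKB, a kinase of chromosome segregation, at -0.18, -1.86 and -0.34. KIF20A, a kinesin of cell division, was the highest by its mean, at 0.75, -1.12 and 0.43. Under siRNA 1, 28 of the 45 mitosis genes read above both control arrays, against 14 of the 59 replication genes and 32.2% of all genes. The difference between the lists was not tested.

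**Figure D4:**
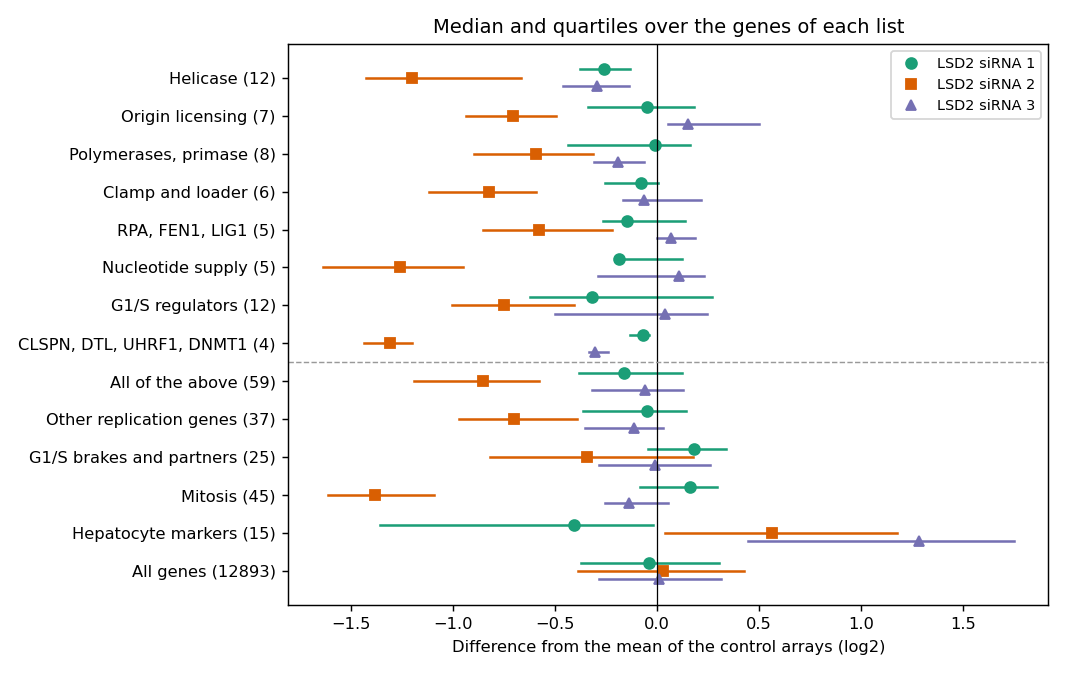
Median (mark) and quartiles (line) of the log2 difference from the control mean under each siRNA, for the 8 roles of the 59 genes above the dashed line and for other lists below it, with the number of measured genes in parentheses. The medians of siRNA 2 run from -1.31 to -0.58 over the roles and reach -1.38 for mitosis, while all genes lie near 0.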

How the data were processed

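RNA of HepG2 cells was labelled with a 3′ in vitro transcription kit and measured on 5 expression arrays. MAS5 made the array summaries, per the submitters' processing notes. Deposited values, from -7.05 to 7.47, were taken as log2 values, an assumption. The base of the logarithm, the probe set filter and any scaling are not given in the sources used here. All 30137 probe sets had a median of 0 over the arrays, so levels were absent and dim, noisy probe sets could not be recognised. Probe sets with 1 symbol in the platform's annotation (24151) were averaged into 12893 genes, with 1175 of several symbols and 4753 of none left out. Gene values entered limma (version 3.58.1, functions lmFit and eBayes, R 4.3.3) in a two-sided test of 3 siRNAs against the averaged control, with 2 residual degrees of freedom and the lone control assumed to vary like the knockdowns. P-values were Benjamini-Hochberg adjusted over all genes, with a threshold of 0.05, and the fit was tested on simulated data. Because the labels' numbers name siRNAs in one group and technical replicates in the other, they do not pair samples. Members and lists were chosen with earlier results of these data known. Genes were named by a rule: in each list the 2 lowest and the highest by mean, members whose siRNA arrays all lay on one side of both control arrays, and the 5 widest gaps of siRNA 2; other members were named after their values were seen. Alternatives were quantile normalization, median subtraction, other summaries of probe sets, a filter on control agreement, separate control arrays, blocks, and leaving out each array. Median subtraction gave the same values as the main fit, so it was not a separate check. Tables and plots used Python 3.11.15, pandas 2.3.3 and matplotlib 3.10.9.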

Additional observations from a re-analysis of the deposited data

How the results depend on the processing

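The count of genes called in limma was 0 under every alternative run, with at most 707 genes at an unadjusted p under 0.05 (with the replicate block) and a lowest adjusted p of 0.182 in limma (with the control arrays separate). The median of the 59 genes was -0.35 and stayed below 0 throughout. When arrays were left out it lay between -0.54 without siRNA 3 and -0.15 without siRNA 2. The replicate block gave -0.54 too, but it is not a separate check. No control array carries the number of siRNA 3, so the block takes up that array. Its mean differences are those without siRNA 3, and the numbers it blocks on do not pair samples. Quantile normalization gave -0.31. For the array set block each siRNA was set only against the control array of its own spike-in set, which is a looser rule. By it 23 genes were lower under all 3 siRNAs (18.4% of all genes), against 15 below both control arrays (10.1%). Leaving out each array in turn gave 15 to 29 such genes, namely 25 without siRNA 1 (17.3% of all genes), 15 without siRNA 2 (16.2%), 28 without siRNA 3 (20.2%), 22 without control array 1 (20.2%) and 29 without control array 2 (24.5%); fewer arrays have to agree in each of these. Of 36 named genes, 25 kept the direction of their mean in all alternatives, and 11 turned in at least 1, the cause of which was not tested. The median of probe sets put RPA1 at 0.036. With 1 probe set per gene RPA1 stood at 0.12 and POLD3 at -0.31. With the replicate block ORC3 stood at -0.0024 and E2F8 at -0.22, and with the array set as a block POLD3 stood at -0.019. When arrays were left out, the means ran from -0.0024 to 0.32 for ORC3, -0.24 to 0.29 for POLD3, -0.12 to 0.033 for RPA1, -0.051 to 0.37 for E2F3 and -0.27 to 0.54 for E2F8. They ran from -0.31 to 0.10 for GINS1, -0.81 to 0.13 for RFC1, -0.33 to 0.072 for LIG1, -0.52 to 0.32 for TYMS, -0.78 to 0.36 for RRM1 and -1.69 to 0.38 for E2F2. Of these, GINS1, RFC1, LIG1, TYMS and RRM1 turned above the control without siRNA 2, and E2F2 and LIG1 without control array 1. Levels and signal over background are absent from the values, so the precision of dim genes is unknown.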

Other observations

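Hepatocyte markers were read beside the replication genes on the same arrays. Of 17 such markers 15 were measured, with medians of -0.40, 0.56 and 1.28 under siRNAs 1, 2 and 3. Above both control arrays stood 9 under siRNA 2 (38.1% of all genes) and 14 under siRNA 3 (35.2%). Over these markers control array 2 minus control array 1 had a median of 0.45, where over all genes it was -0.06. The siRNA 2 median was 0.78 against control array 1 but 0.09 against control array 2, so its size depended on the control array chosen. The siRNA 3 median was 1.45 against control array 1 and 1.06 against control array 2, which shares its spike-in set. CYP2E1, a P450 of mature hepatocytes, stood at 1.59, -0.01 and 2.64, with control arrays at -0.82 and 0.82. AFP, the fetal albumin-like protein, stood at -0.39, -0.33 and 0.22. FOXA2, a transcription factor of liver cells, had the lowest mean of the markers and stood at -0.29, 0.06 and -0.60. Named after their values were seen, the plasma protein genes ALB, TTR, SERPINA1 and APOH read 3.03, 3.16, 1.57 and 1.46 under siRNA 2. Under siRNA 1 they read -2.02, -1.65, 0.06 and 0.32. Other plasma protein genes of the list, FGG, APOB and AHSG, read 0.02, 0.01 and 0.09 under siRNA 2. On the siRNA 1 array 10 of the 15 markers read below both control arrays (40% of all genes). Replication genes were near the control under siRNA 3, where the hepatocyte markers had their highest median. The part of either group in the other was not tested.

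Markers of mesenchymal cells and leukocytes were measured for 6 of 9 and 5 of 8 genes. The mesenchymal list had medians of 1.20, 0.08 and -1.16 under siRNAs 1, 2 and 3, and the leukocyte list of 0.32, -0.07 and -0.38. COL1A1, a collagen of connective tissue, stood at 3.32, 1.27 and -0.84 and CD14, a monocyte receptor, at 1.03, 2.45 and 1.36. These were the highest of their lists by the mean. The lowest mesenchymal markers were LUM, a matrix proteoglycan, at -2.07, -0.32 and -1.48, and PDGFRB, a growth factor receptor, at 1.30, -2.54 and -2.27. The lowest leukocyte markers were CD3E, a T cell receptor subunit, at -0.42, -0.64 and -0.61 with control arrays at 0.25 and -0.25, and LYZ, the lysozyme gene, at -1.66, -0.07 and 0.12. With levels absent from the values, it cannot be said whether these genes were expressed.

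The 59 replication genes had 102 probe sets, and 93 of them (91.2%) read below the control mean under siRNA 2, against 50.2% of all probe sets named for 1 gene. Of 33 genes with several probe sets, 27 had all of them on one side of the control under siRNA 2. The same count was not made over all genes, so it does not set these genes apart. The widest spread was in RFC5, at 3.63 between its probe sets, followed by GINS4 at 2.14 and POLD3 at 1.61.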
